A study of Arabidopsis thaliana with 12 samples.

Results

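GH3.3 and AT1G12010 are Arabidopsis thaliana genes for enzymes that act on plant hormones: GH3.3 is an auxin-amido synthetase and AT1G12010 is an ACC oxidase. They are 2 of 13356 genes measured on 12 ATH1 arrays, and they were chosen because their levels lay far apart between amiR-SNF4 and wild-type seedlings, in opposite directions. The difference between the genotypes is therefore given as a description, without a test.

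Whole Col-0 seedlings were compared in 4 groups of 3 arrays: amiR-SNF4 grown in light, wild type grown in light, amiR-SNF4 grown in darkness, and wild type grown in darkness. The amiR-SNF4 line carries an inducible artificial microRNA against SNF4, the activating subunit of the SnRK1 kinase, a sensor of low cellular energy. All groups, wild type included, grew at 22 °C with 5 µM β-estradiol, the inducer, and 0.5% sucrose, and were collected 5 days after germination. The labels place collection 4 h into the light period, also for the dark groups. Only for the light groups do they give a regime, 8 h of light and 16 h of darkness, and an age of 7 days after sowing. No amiR-SNF4 group without inducer was analysed here, and the labels give neither the number of lines nor the number of seedlings in a sample. No probe set analysed here is named for SNF4, so its silencing could not be checked in these arrays.

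Auxin moves between free and bound pools. GH3 enzymes join indole-3-acetic acid, the main free auxin, to amino acids, which lowers the active pool, and many GH3 genes are themselves switched on by auxin. ACC oxidases carry out the last step of ethylene synthesis, in which 1-aminocyclopropane-1-carboxylic acid (ACC) becomes ethylene. In seedlings grown in darkness, both hormones shape the elongating hypocotyl and the apical hook.

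The deposited values were linear intensities. Array medians ran from 39.4 to 99.5, a 2.52-fold range, so the arrays were quantile-normalized, and levels below are log2(normalized intensity + 16) unless called deposited. On this scale 4 is the lowest possible value, and a difference of 1 is a doubling for bright genes and more than a doubling for dim ones. Levels were compared between groups for 1 gene at a time, because probe sets differ in brightness. The exception is the sums over organ markers, which depend most on the brightest probe sets. Within groups, arrays correlated at 0.961 to 0.986. In bulk samples, fewer cells of a type and less RNA per cell cannot be told apart.

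GH3.3 was higher in amiR-SNF4 than in wild type under both growth conditions. In light its level was 9.33, 9.03 and 9.22 on the amiR-SNF4 arrays, against 5.69, 6.26 and 6.20 on the wild-type arrays. In darkness it was 10.46, 9.37 and 10.15 in amiR-SNF4, against 7.86, 7.34 and 7.20 in wild type. Every amiR-SNF4 array lay above every wild-type array, also across growth conditions. The difference was 3.144 ± 0.26 in light (SE, n = 3 per group), or 8.84-fold, and 2.53 ± 0.26 in darkness, or 5.77-fold. The deposited intensities showed the same separation before any normalization. They were 645, 532 and 746 in amiR-SNF4 against 34.0, 92.7 and 73.2 in wild type in light, and 984, 618 and 1027 in amiR-SNF4 against 207, 144 and 78.3 in wild type in darkness.

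AT1G12010 was lower in amiR-SNF4 than in wild type under both growth conditions. In light its level was 5.25, 5.21 and 5.58 in amiR-SNF4, against 8.32, 7.97 and 8.40 in wild type. In darkness it was 4.74, 4.73 and 5.19 in amiR-SNF4, against 8.66, 8.46 and 8.80 in wild type. Again the genotypes did not overlap, and here the amiR-SNF4 arrays were the low ones. The difference was -2.89 ± 0.18 in light (SE, n = 3 per group), or 7.39-fold lower, and -3.75 ± 0.18 in darkness, or 13.5-fold lower.

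The amiR-SNF4 values of AT1G12010 lay close to the lowest value the scale allows, so the size of these folds depends on the constant that was added. Deposited intensities were 22.7, 23.1 and 40.7 in amiR-SNF4 against 289, 379 and 393 in wild type in light, and 8.72, 11.3 and 19.6 in amiR-SNF4 against 380, 334 and 242 in wild type in darkness. With 1 added in place of 16 the differences were -3.48 in light and -4.75 in darkness, and with 64 added they were -1.97 and -2.52. All kept the same direction.

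**Figure D1:**
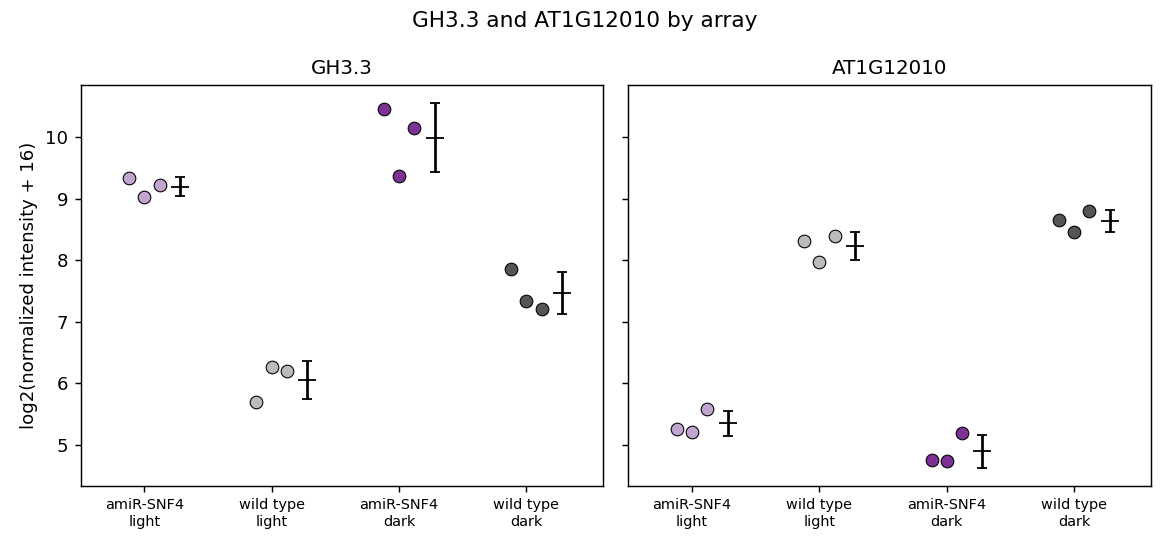
Levels of GH3.3 (left) and AT1G12010 (right), as log2(normalized intensity + 16) on the vertical axis, in 4 groups of 3 arrays on the horizontal axis. Each point is 1 array, and the bar beside the points is the group mean ± SD. GH3.3 lay between 9.03 and 10.46 in amiR-SNF4 and between 5.69 and 7.86 in wild type, and AT1G12010 lay between 4.73 and 5.58 in amiR-SNF4 and between 7.97 and 8.80 in wild type.

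Non-overlap of this kind was common in these arrays. The 3 amiR-SNF4 and 3 wild-type arrays did not overlap for 40.4% of all genes in light and for 37.0% in darkness, and limma called 19.1% of all genes in light and 30.8% in darkness at an adjusted p under 0.05. Since the genes were chosen on these contrasts, nothing is read from their place among them. Across the 12 arrays the levels of GH3.3 and AT1G12010 had a Pearson correlation of -0.89, a value that mostly repeats the separation of the genotypes.

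Summed levels of organ markers also lay apart between the genotypes, although not every marker was called. Summed normalized intensity of the 3 measured root markers of 7 listed (EXPA7, EXPA18 and AT4G26010) ran from 95.4 to 118 in amiR-SNF4 against 343 to 556 in wild type in light, and from 41.5 to 49.7 in amiR-SNF4 against 157 to 173 in wild type in darkness. The 3 measured green shoot markers of 7 listed (LHCB4.2, PSAN and PRK) summed to 4317 to 4575 in amiR-SNF4 against 6451 to 7782 in wild type in light, and to 1377 to 2440 in amiR-SNF4 against 5332 to 7657 in wild type in darkness. In amiR-SNF4 in darkness EXPA7 and EXPA18 were dim, at 4.81 and 4.72 on average, near the lowest value the scale allows. The green shoot markers did not move together with growth condition, so their sum is compared only within a condition. In wild type light minus dark was -2.06 for LHCB4.2, 1.57 for PSAN and 0.36 for PRK. The root sum in wild type in light rests mostly on AT4G26010, at 8.38 on average, against 6.04 for EXPA7 and 6.46 for EXPA18. Of the root markers 1 was called in light (AT4G26010) and 2 in darkness (EXPA18 and AT4G26010), and of the green shoot markers 2 in light (LHCB4.2 and PSAN) and all 3 in darkness, each lower in amiR-SNF4. Among all genes, 9.94% in light and 16.5% in darkness were called lower in amiR-SNF4. EXPA7 was called in neither condition (adjusted p = 0.287 in light and 0.117 in darkness). Both sums were lower in amiR-SNF4 under each condition, and their part in the levels of GH3.3 and AT1G12010 was not tested.

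Ordered by group mean, GH3.3 was lowest in wild type in light (6.05 ± 0.31, SD, n = 3), then wild type in darkness (7.47 ± 0.35), amiR-SNF4 in light (9.19 ± 0.15) and amiR-SNF4 in darkness (9.997 ± 0.56). Neighbours in this order were 1.42, 1.73 and 0.80 apart, each more than the larger SD of the pair, and their ranges did not overlap. The closest arrays were an amiR-SNF4 array in light at 9.33 and an amiR-SNF4 array in darkness at 9.37. AT1G12010 ran from amiR-SNF4 in darkness (4.89 ± 0.26) through amiR-SNF4 in light (5.34 ± 0.20) and wild type in light (8.23 ± 0.23) to wild type in darkness (8.64 ± 0.17). Its neighbours were 0.46, 2.89 and 0.41 apart, and their ranges did not overlap either.

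Growth in light or darkness was not used to choose the genes, and the growth difference averaged over both genotypes shares no contrast with the genotype differences. On this average GH3.3 was lower in light than in darkness, by 1.11 on the log2 scale (-1.11 ± 0.19, SE, 6 arrays per condition, limma adjusted p = 0.000297), where 44.7% of all genes passed the same test. It was lower in light within each genotype. The difference was -0.80 ± 0.26 in amiR-SNF4 (adjusted p = 0.0326) and -1.42 ± 0.26 in wild type (adjusted p = 0.001035), where limma called 33.7% and 34.9% of all genes.

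The call in amiR-SNF4 was lost when any 1 of 5 arrays was left out. The value was -0.57 without amiR-SNF4 dark replicate 1, -0.73 without dark replicate 3, and -0.87, -0.72 and -0.82 without light replicates 1, 2 and 3, with adjusted p from 0.05325 to 0.133. Normalization mattered as well: without it the differences were -0.42 in amiR-SNF4 (adjusted p = 0.430) and -0.93 in wild type (adjusted p = 0.0553), and deposited intensities of the 2 growth conditions overlapped in each genotype. The average over both genotypes passed under all 20 alternatives, with -0.68 and an adjusted p of 0.0408 without normalization.

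AT1G12010 had no called growth difference in the main fit, which did not use the replicate numbers. Averaged over both genotypes, light minus dark was 0.02 ± 0.12 (SE, 95% interval -0.25 to 0.29, adjusted p = 0.906). Within amiR-SNF4 it was 0.46 ± 0.18 (95% interval 0.07 to 0.84, adjusted p = 0.0641) and within wild type -0.41 ± 0.18 (95% interval -0.79 to -0.03, adjusted p = 0.0924). In both genotypes the 3 light arrays did not overlap the 3 dark arrays, being higher in amiR-SNF4 and lower in wild type, and 45.6% of all genes in amiR-SNF4 and 46.0% in wild type were separated in this way. Without amiR-SNF4 dark replicate 3 the difference in amiR-SNF4 was 0.61, with an adjusted p of 0.0221. Without normalization the wild-type difference was 0.15 (adjusted p = 0.682), opposite in sign.

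The genotype difference in light minus that in darkness was 0.62 ± 0.37 (SE) for GH3.3 and 0.87 ± 0.25 for AT1G12010, given without a test because the genotype contrasts chose the genes. For AT1G12010 this means a less negative difference in light, on a scale whose lower end its amiR-SNF4 values approach.

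Genes of the auxin and ethylene pathways were set beside these 2 genes from lists of known loci. Only some could be measured: 41 of 236 entries of the first lists and 23 of 97 entries of wider lists drawn up once the array annotation had been seen. Probe sets that name several genes or none were left out. None of the listed genes of auxin transport, auxin receptors and response factors, ACC synthesis or the wider SAUR family was analysed here. Apart from GH3.3, AT1G12010 and the organ markers, 56 listed genes were measured. In light 13 of these were called (9 higher and 4 lower in amiR-SNF4), or 23.2% against 19.1% of all genes, of which 9.14% were higher and 9.94% lower. In darkness 22 were called (10 higher and 12 lower), or 39.3% against 30.8% of all genes, of which 14.3% were higher and 16.5% lower.

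Among the GH3 genes, 10 besides GH3.3 were measured, and their median difference between the genotypes was 0.00 in light and -0.07 in darkness. All of them but WES1 and GH3.17 were dim, with group means from 4.08 to 5.72, near the lowest value the scale allows. A change in these dim genes could be missed, so the median does not show that they were unchanged. In light 2 of the 10 were called, both higher in amiR-SNF4, a share near the 19.1% of all genes. WES1, also named GH3.5, which conjugates auxin and salicylic acid, was at 8.31, 8.44 and 8.17 in amiR-SNF4 against 7.24, 7.15 and 7.03 in wild type. It rose by 1.17 ± 0.17 in amiR-SNF4 in light, or 2.24-fold (SE, n = 3 per group, limma adjusted p = 0.000273). In darkness WES1 was at 9.55, 9.10 and 9.01 in amiR-SNF4 against 9.55, 9.52 and 9.92 in wild type, a difference of -0.44 ± 0.17 with an adjusted p of 0.0639. The genotype differences of WES1 in light and in darkness were 1.61 ± 0.24 apart (adjusted p = 0.001154, where 7.99% of all genes were called).

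The other GH3 call in light was AT5G13350, a locus without a name in the gene table used here, at 0.65 ± 0.21 (adjusted p = 0.0441). It was lost without amiR-SNF4 light replicate 1 or 2, wild-type light replicate 1 or 2, amiR-SNF4 dark replicate 2 or 3, or wild-type dark replicate 2, with values from 0.42 to 0.75 and adjusted p up to 0.190. In darkness limma called 0 of the 10, most of them dim, where 30.8% of all genes were called. Of the 10, 2 had an unadjusted p under 0.05. GH3.1, which conjugates auxin, differed by -0.06 ± 0.30 in light and by -0.25 ± 0.30 in darkness, and GH3.9 by -0.16 ± 0.17 and -0.02 ± 0.17. GH3.17, which favours glutamate as the amino acid, differed by 0.14 ± 0.24 in light and by 0.21 ± 0.24 in darkness. None of these 3 was called, and GH3.1 and GH3.9 were dim in every group, with means from 4.52 to 5.08.

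**Figure D2:**
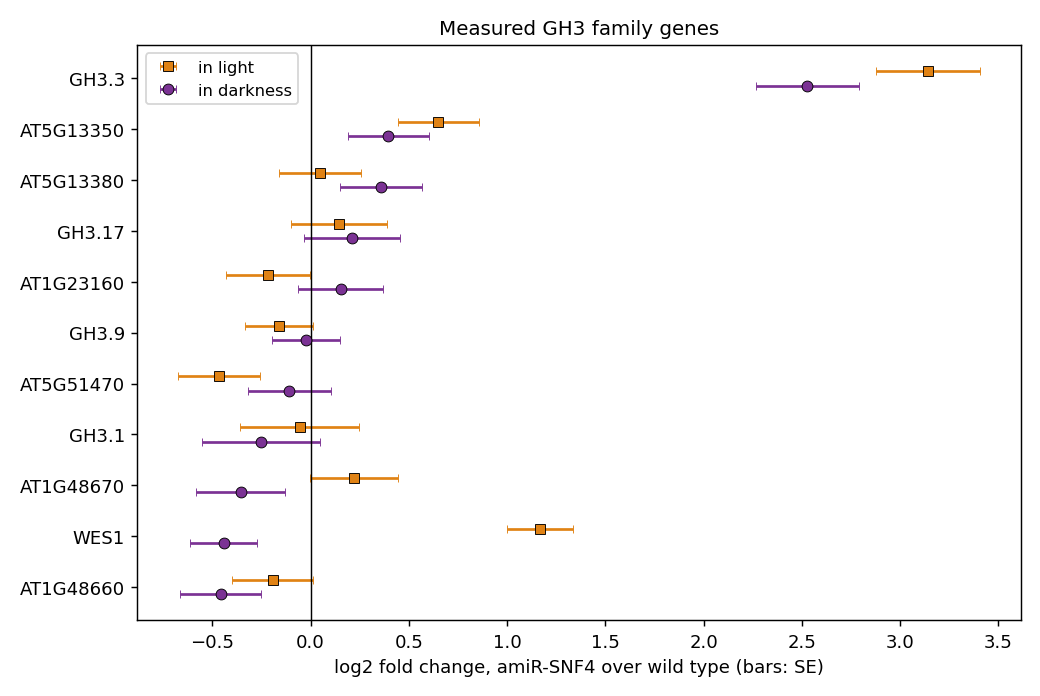
Difference between amiR-SNF4 and wild type for the 11 measured GH3 genes, as log2 fold change on the horizontal axis, in light (squares) and in darkness (circles), with SE bars. GH3.3 stood at 3.144 in light and 2.53 in darkness, and the other 10 lay between -0.47 and 1.17.

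Growth condition moved 2 of the 10 other GH3 genes in amiR-SNF4 and 3 in wild type, all lower in light, as were 15.9% of all genes in amiR-SNF4 and 16.4% in wild type. WES1 was lower in light, at -0.92 ± 0.17 in amiR-SNF4 (adjusted p = 0.000996) and at -2.53 ± 0.17 in wild type (adjusted p = 4.49e-07). GH3.17 was lower in light, at -1.40 ± 0.24 in amiR-SNF4 (adjusted p = 0.000675) and at -1.33 ± 0.24 in wild type (adjusted p = 0.000881). GH3.3, at -0.80 and -1.42, had the same direction as these genes. The remaining call was AT1G48660 in wild type, at -0.60 ± 0.21 (adjusted p = 0.0382), which was lost without wild-type dark replicate 1 or 2, wild-type light replicate 1 or 2, or any amiR-SNF4 light replicate, with values from -0.66 to -0.44.

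Of the auxin synthesis genes, 4 of 23 listed were measured. YUC4, a flavin monooxygenase that makes auxin from indole-3-pyruvate, was at 5.65, 5.67 and 5.59 in amiR-SNF4 against 4.31, 5.10 and 4.65 in wild type in light, and at 6.23, 5.65 and 5.56 in amiR-SNF4 against 4.45, 4.63 and 4.59 in wild type in darkness. It rose in amiR-SNF4 by 0.95 ± 0.21 in light (SE, n = 3 per group, adjusted p = 0.00551) and by 1.26 ± 0.21 in darkness (adjusted p = 0.000407). YUC6, of the same family, fell by 1.07 in darkness (-1.07 ± 0.26, adjusted p = 0.00611) and was at -0.61 ± 0.26 in light, with an adjusted p of 0.132. In darkness YUC6 lay between 4.22 and 4.37 in amiR-SNF4 and between 4.96 and 6.03 in wild type. YUC6 in amiR-SNF4 and YUC4 in wild type were thus near the lowest value the scale allows. The size of their differences depends on the added constant. The other 2 were called in neither condition, and none of the 4 was called for growth condition, where limma gave 0 at an unadjusted p under 0.05 as well. Among all genes, 33.7% in amiR-SNF4 and 34.9% in wild type were called for growth condition.

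Of the genes listed for auxin release and other inactivation, 4 of 13 were measured: AT1G14130, AT1G14120, UGT84B1 and UGT74D1. None of these is a listed gene for auxin release. Between the genotypes limma called 1 of them in darkness, where 30.8% of all genes were called. This was AT1G14120, entered in the list as DAO2 but without a name in the gene table. Its difference of -0.72 ± 0.25 (adjusted p = 0.0453) was lost without wild-type dark replicate 1 or 2, amiR-SNF4 dark replicate 1 or 2, or any of the 6 light arrays, with values from -0.81 to -0.50. Limma called 0 between the genotypes in light, where 19.1% of all genes were called, and 1 had an unadjusted p under 0.05. For growth condition 2 of the 4 were called in wild type, both lower in light, where 16.4% of all genes were called lower. In amiR-SNF4 0 were called, against 33.7% of all genes. In wild type UGT74D1 was at -0.69 ± 0.19 (adjusted p = 0.0142) and AT1G14120 at -0.81 ± 0.25 (adjusted p = 0.0234). Both calls were lost without normalization, at -0.12 and -0.39, and when some single wild-type arrays were left out.

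Of 10 measured genes in the lists of Aux/IAA and early auxin-responsive genes, 4 were called in darkness. All 4 were lower in amiR-SNF4, where 16.5% of all genes were called lower. The genes were grouped by list, and their response to auxin was not tested. In light 0 were called by limma, where 19.1% of all genes were, and 1 had an unadjusted p under 0.05. Aux/IAA proteins are repressors of auxin-responsive transcription, and 7 of 29 were measured. IAA29 was at 5.25, 5.99 and 5.74 in amiR-SNF4 against 7.13, 7.72 and 7.21 in wild type in darkness, and fell by 1.70 (-1.70 ± 0.20, SE, n = 3 per group, adjusted p = 2.43e-05). IAA34 fell by 1.02 (-1.02 ± 0.22, adjusted p = 0.00303). In light their differences were 0.12 ± 0.20 and 0.03 ± 0.22, and limma called 0 of the 7, with 0 at an unadjusted p under 0.05.

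HAT2, an auxin-induced homeodomain-leucine zipper transcription factor gene, was at 7.27, 7.73 and 7.25 in amiR-SNF4 against 8.90, 8.93 and 8.80 in wild type in darkness. It fell by 1.46 (-1.46 ± 0.15, adjusted p = 6.36e-06). In light it was at 7.47, 7.63 and 7.61 in amiR-SNF4 against 6.99, 7.26 and 7.13 in wild type, a difference of 0.44 ± 0.15 with an adjusted p of 0.0549. LBD29, a lateral-organ-boundaries gene of lateral root initiation, fell by 1.02 in darkness (-1.02 ± 0.31, adjusted p = 0.0248). That call was lost without wild-type dark replicate 1 or 2 or amiR-SNF4 dark replicate 1 or 3, with values from -0.98 to -0.71. It was also lost without normalization, at -0.93 (adjusted p = 0.0863), with 1 added in place of 16, and when only the compared groups were fitted. Of the 3 root markers, 2 were called lower in amiR-SNF4 in darkness as well, where 16.5% of all genes were. The part of the root markers in the level of LBD29 was not tested. The genotype differences in light and in darkness were 1.82 ± 0.28 apart for IAA29 (adjusted p = 0.001501) and 1.90 ± 0.21 apart for HAT2 (adjusted p = 0.000131). Without normalization they were 1.64 and 1.68 apart, with adjusted p of 0.0598 and 0.0629.

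In wild type 4 of the 7 Aux/IAA genes and all 3 other genes (HAT2, LBD16 and LBD29) were called lower in light, against 16.4% of all genes. In amiR-SNF4 it was 1 of the 7 and 1 of the 3, against 15.9%. IAA34 was at -1.04 ± 0.22 in wild type (adjusted p = 0.00242) and 0.004 ± 0.22 in amiR-SNF4. LBD29 was at -0.96 ± 0.31 in wild type (adjusted p = 0.0291), on overlapping arrays, and 0.07 ± 0.31 in amiR-SNF4. IAA29 and HAT2 moved in the same way. IAA29 was lower in light than in darkness, at -1.71 ± 0.20 in wild type (adjusted p = 2.81e-05) and stood at 0.11 ± 0.20 in amiR-SNF4 (adjusted p = 0.738). HAT2 was lower in light, at -1.75 ± 0.15 in wild type (adjusted p = 2.41e-06) and stood at 0.15 ± 0.15 in amiR-SNF4 (adjusted p = 0.478). IAA20, another Aux/IAA gene, was lower in light in both genotypes, at -2.82 ± 0.33 in amiR-SNF4 (adjusted p = 3.57e-05) and at -3.83 ± 0.33 in wild type (adjusted p = 2.83e-06). Its light arrays, at 4.19 to 4.50, lay near the lowest value the scale allows, so the size of these differences depends on the added constant. LBD16, which also acts in lateral root initiation, was lower in light, at -0.64 ± 0.16 in amiR-SNF4 (adjusted p = 0.00919) and at -0.87 ± 0.16 in wild type (adjusted p = 0.00116), calls that were lost without normalization, at -0.29 and -0.36.

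**Figure D3:**
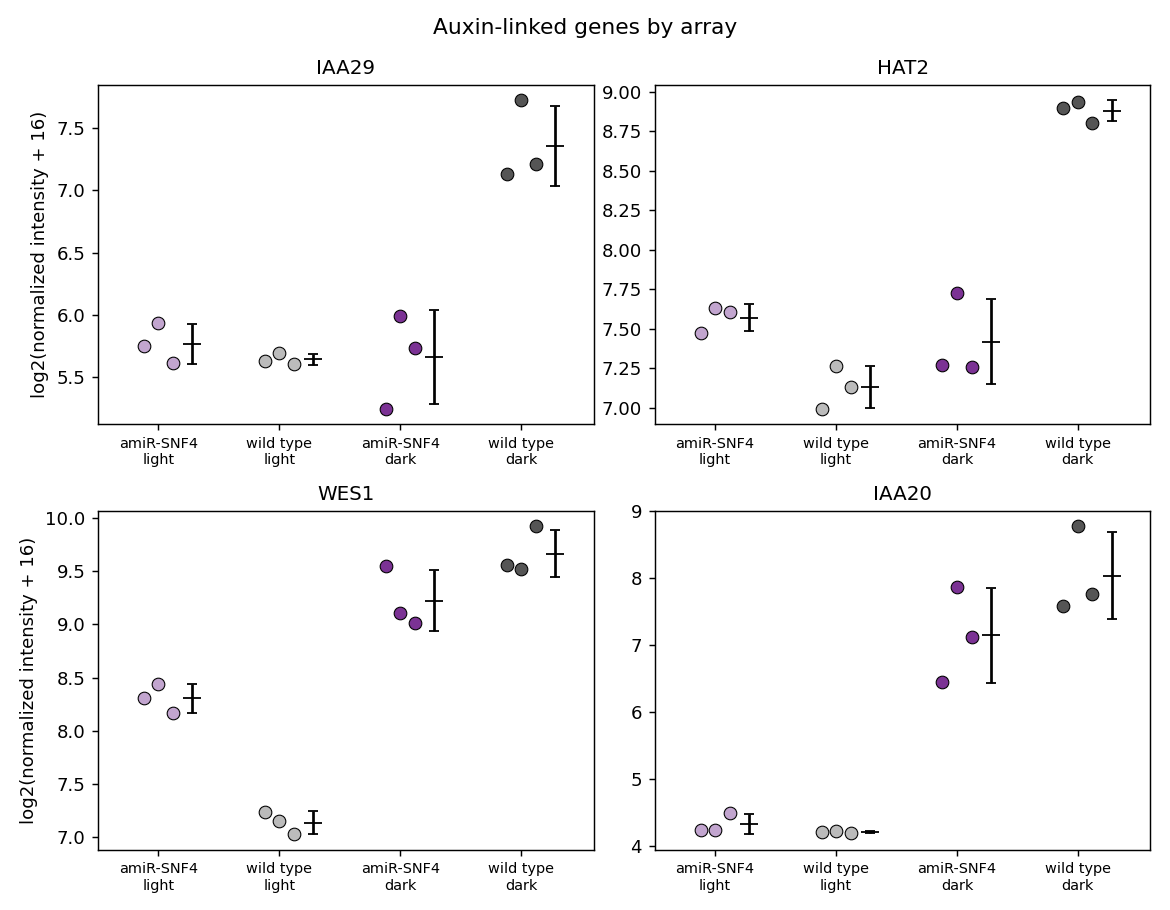
Levels of IAA29, HAT2, WES1 and IAA20, as log2(normalized intensity + 16) on the vertical axis, in 4 groups of 3 arrays on the horizontal axis. Each point is 1 array, and the bar beside the points is the group mean ± SD. IAA29 and HAT2 were highest in wild type in darkness, at 7.36 and 8.88 on average, while WES1 and IAA20 were lower in light than in darkness in both genotypes.

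AT1G12010 was the only ACC oxidase of 5 listed that could be measured, so its lower level in amiR-SNF4 cannot be set against other ACC oxidases. Of the ethylene receptor and signalling genes, 4 of 19 were measured. EIN3, the transcription factor at the end of the ethylene signal, differed between the genotypes by -0.06 ± 0.24 in light (adjusted p = 0.936) and by -0.16 ± 0.24 in darkness (adjusted p = 0.681). It was lower in light than in darkness, at -1.22 ± 0.24 in amiR-SNF4 (adjusted p = 0.0014) and at -1.32 ± 0.24 in wild type (adjusted p = 0.000732). RTE1, a regulator of the ethylene receptor ETR1, was higher in light, at 0.59 ± 0.21 in amiR-SNF4 (adjusted p = 0.0435) and 0.75 ± 0.21 in wild type (adjusted p = 0.013). The first call was lost without amiR-SNF4 dark replicate 1, wild-type dark replicate 1 or 2, or any of the 6 light arrays, with values from 0.31 to 0.66, and the second without wild-type dark replicate 3, at 0.64 (adjusted p = 0.0508). The first was also lost without normalization, at 0.91 (adjusted p = 0.0531), with median scaling, with 1 added, and when only the compared groups were fitted.

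In light limma called 0 of the 4 signalling genes between the genotypes, with 0 at an unadjusted p under 0.05, where 19.1% of all genes were called. In darkness it called 1 of the 4, where 30.8% of all genes were called. This was ETP2, an F-box gene that acts in EIN2 turnover, at -0.50 ± 0.17 (adjusted p = 0.0447). This call was lost without wild-type dark replicate 2 or 3, amiR-SNF4 dark replicate 1 or 3, amiR-SNF4 light replicate 1, or any wild-type light replicate, with values from -0.56 to -0.35. PDF1.2, a defensin gene induced by ethylene together with jasmonate, was the only measured gene of 23 listed response genes. It differed by -0.15 ± 0.19 in light (adjusted p = 0.679) and by 0.04 ± 0.19 in darkness (adjusted p = 0.921), on dim values of 4.03 to 5.00.

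A wider list held 16 loci placed with the ACC oxidase-like dioxygenases, of which 15 were measured. The gene table used here gives them no function and a symbol for 2A6 alone, so they are named by locus. In light 7 were called (5 higher and 2 lower in amiR-SNF4), against 19.1% of all genes, and in darkness 10 were called (7 higher and 3 lower), against 30.8% of all genes. AT5G43450 was at 9.59, 9.78 and 9.80 in amiR-SNF4 against 7.14, 7.44 and 7.20 in wild type in light, and at 9.55, 9.44 and 9.64 in amiR-SNF4 against 6.02, 6.41 and 6.26 in wild type in darkness. It rose in amiR-SNF4 by 2.46 ± 0.14 in light (adjusted p = 9.85e-08) and by 3.31 ± 0.14 in darkness (adjusted p = 3.84e-09), opposite in direction to AT1G12010.

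AT1G03400 rose in amiR-SNF4 by 1.61 ± 0.16 in light (adjusted p = 1.17e-05) and by 1.61 ± 0.16 in darkness (adjusted p = 5.41e-06). AT5G59540 rose by 0.74 ± 0.12 in light (adjusted p = 0.000776) and by 1.51 ± 0.12 in darkness (adjusted p = 8.24e-07). Genes lower in amiR-SNF4 included AT1G06640, at -0.83 ± 0.17 in light and -1.31 ± 0.17 in darkness, and 2A6, at -0.92 ± 0.15 and -0.91 ± 0.15, with adjusted p from 5.72e-05 to 0.00386. For growth condition 9 of the 15 were called in amiR-SNF4 (6 higher and 3 lower in light), against 33.7% of all genes. In wild type it was 9 (7 higher and 2 lower), against 34.9%. AT5G59530 was lower in light, at -2.86 ± 0.20 in amiR-SNF4 (adjusted p = 7.52e-07) and -2.74 ± 0.20 in wild type (adjusted p = 1.01e-06). AT1G04350 was higher in light in amiR-SNF4 (1.36 ± 0.15, adjusted p = 2.34e-05), and AT5G59540 in wild type (1.69 ± 0.12, adjusted p = 8.28e-07). Several of these loci are close relatives, and a probe set may read more than 1 of them.

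**Figure D4:**
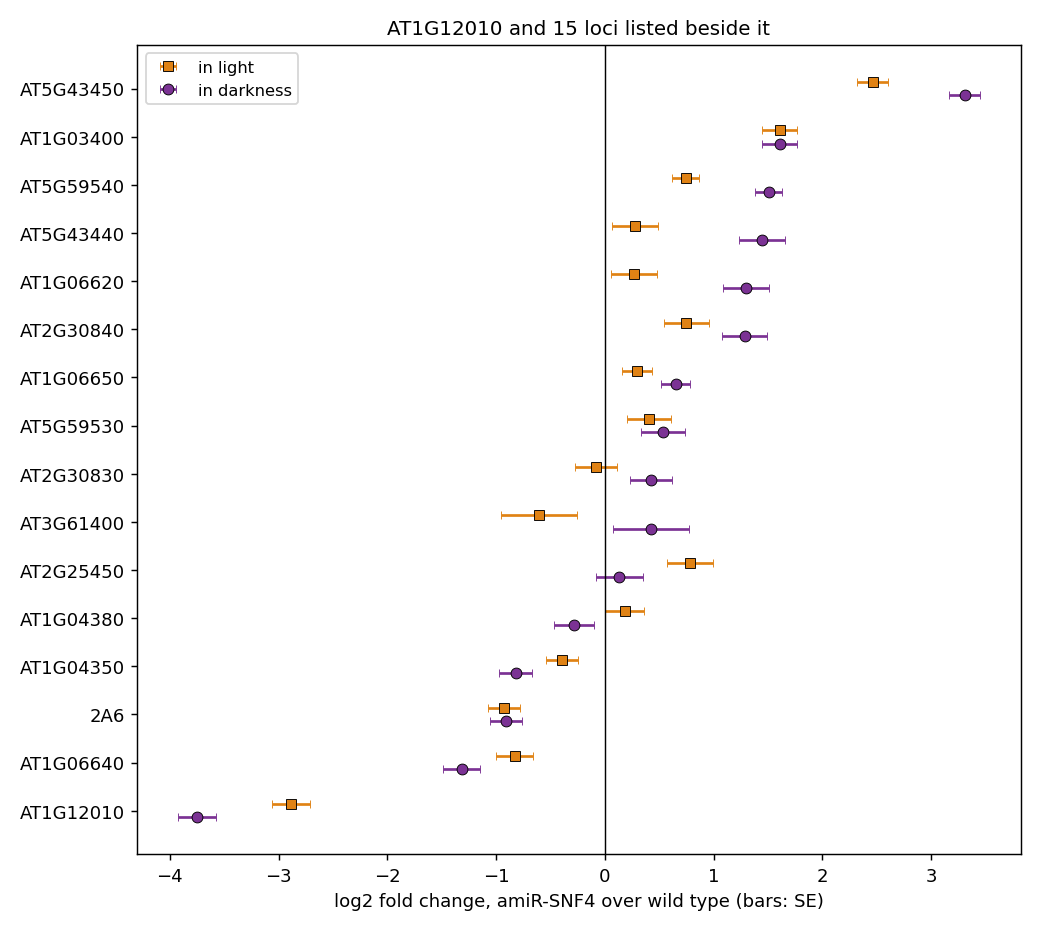
Difference between amiR-SNF4 and wild type for AT1G12010 and the 15 measured loci of the wider list, as log2 fold change on the horizontal axis, in light (squares) and in darkness (circles), with SE bars. AT1G12010 stood at -2.89 in light and -3.75 in darkness, and AT5G43450 stood at 2.46 and 3.31.

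Of 29 further loci placed with the ethylene response factor family, 8 were measured, and 3 were called in light (1 higher and 2 lower in amiR-SNF4), against 19.1% of all genes. In darkness 4 were called (2 higher and 2 lower), against 30.8% of all genes. AT5G61890 rose in amiR-SNF4 by 2.44 ± 0.15 in light (adjusted p = 1.93e-07) and by 2.55 ± 0.15 in darkness (adjusted p = 6.05e-08). AT5G07580 fell by 0.98 in light (-0.98 ± 0.22, adjusted p = 0.00752) and by 2.06 in darkness (-2.06 ± 0.22, adjusted p = 1.2e-05). Its call in light was lost without normalization, at -1.12 (adjusted p = 0.0567). The gene table names neither locus. For growth condition 3 of the 8 were called in amiR-SNF4 (2 higher and 1 lower in light), against 33.7% of all genes. In wild type 1 was called, against 34.9%. AT5G07580 was higher in light, at 2.06 ± 0.22 in amiR-SNF4 (adjusted p = 1.94e-05) and 0.99 ± 0.22 in wild type (adjusted p = 0.00392). AT5G61590 was higher in light in amiR-SNF4, at 1.05 ± 0.25 (adjusted p = 0.005).

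Finally, the 5 genes most like each of the 2 genes were found by Pearson correlation of the levels over the 12 arrays, which share the 4 groups and the normalization, so these values are a description. GH3.3 was followed most closely by AT5G45000 (0.993), AT4G25900 (0.986), DER1 (0.986), AT5G38710 (0.984) and AT2G39210 (0.980). DER1 encodes DERLIN-1, a protein of the endoplasmic reticulum membrane. Its level averaged 8.81 in amiR-SNF4 and 7.77 in wild type in light, and 9.10 in amiR-SNF4 and 8.24 in wild type in darkness. AT5G38710 came nearest to GH3.3 in the size of its genotype differences, 2.89 ± 0.19 in light and 2.74 ± 0.19 in darkness.

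AT1G12010 was followed most closely by AT5G15180 (0.988), AT4G38690 (0.988), AT1G28100 (0.985), AT5G44020 (0.984) and THE1 (0.983). THE1 encodes THESEUS1, a receptor kinase of the plasma membrane that responds to the state of the cell wall. Its level averaged 6.88 in amiR-SNF4 and 8.12 in wild type in light, and 6.64 in amiR-SNF4 and 8.38 in wild type in darkness. AT4G38690 had genotype differences of -2.59 ± 0.15 in light and -2.98 ± 0.15 in darkness. None of these 10 genes stood in the auxin and ethylene lists.

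**Figure D5:**
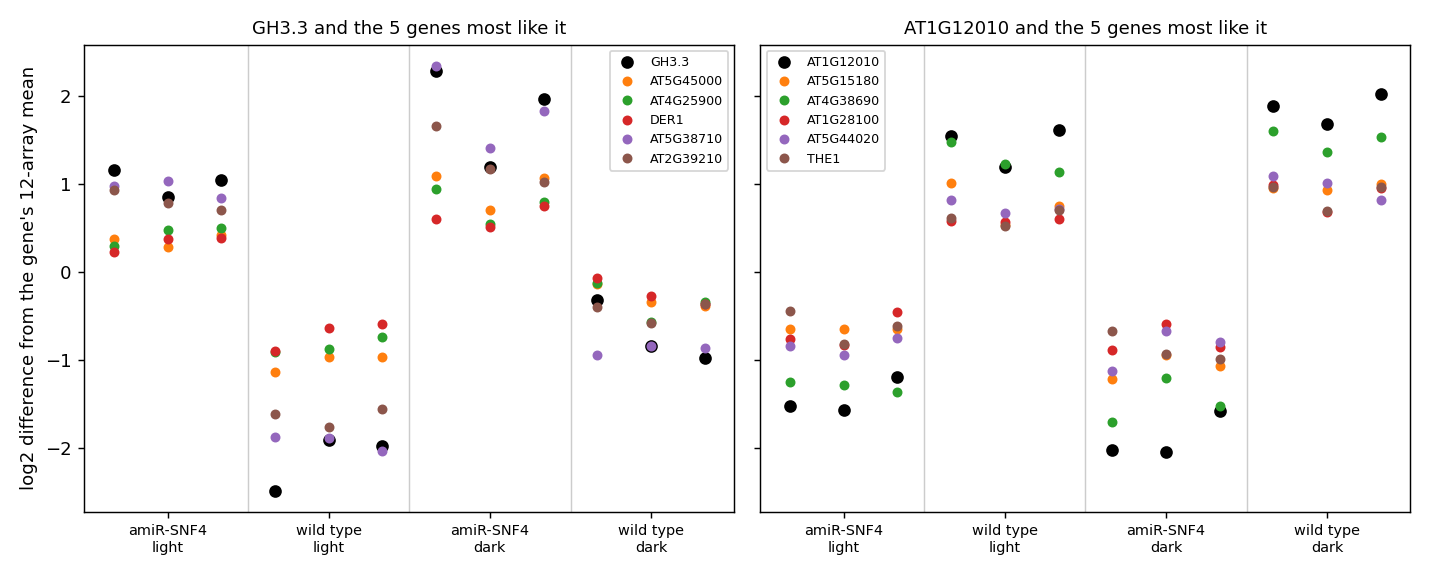
Levels of GH3.3 with the 5 genes most like it (left) and of AT1G12010 with the 5 genes most like it (right) on the 12 arrays, as the log2 difference from each gene's mean over the arrays on the vertical axis. The horizontal axis gives the 4 groups, with 3 arrays each, and black points are GH3.3 or AT1G12010. All 5 genes on the left were higher in amiR-SNF4 than in wild type under both growth conditions, and all 5 on the right were lower.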

How the data were processed

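RNA was measured in 12 samples on 1-colour ATH1 arrays, and groups were taken from the sample titles. The deposited values are intensities on a linear scale, made with GCOS per the submitters' processing notes, and how they were scaled is not given in the sources used here. The labels state 2 light intensities, 120 in the sample protocols and 400 in the study design. Arrays of a group are titled biological replicates, but separate cultures are not stated, so the spread behind each p-value may be technical. Detection calls were not used, and the number of arrays limits the precision.

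After 64 of 22810 probe sets were set aside as controls, 22746 were quantile-normalized and log2(intensity + 16) was taken, a constant that understates changes of dim genes. Genes were named from the platform annotation: 13513 probe sets name 1 gene, 503 name several and 8730 are unnamed here. The brightest probe set was kept for 146 genes with more than 1, leaving 13356 genes. Of these, 13286 matched the TAIR10.1 gene table, which was used for names only. Sequences and coordinates were not used here.

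All 12 arrays entered 1 limma fit (lmFit and eBayes, limma 3.58.1, R 4.3.3) with the 4 groups and no covariate. P-values were Benjamini-Hochberg adjusted over 13356 genes, with calls at an adjusted p under 0.05, and the fit was tested on simulated data. Genes were picked by rule: all measured GH3 and ACC oxidase genes, in each other list up to 2 called genes per contrast, and the 5 genes most correlated with each of the 2 genes. Not every gene and contrast picked in this way is described in the text. AT1G06640, 2A6 and AT5G43440 were named after their values were seen. The 2 genes and the lists were chosen with earlier results of these data known. The test averaged over genotypes and the test between genotype differences were added after the data were seen.

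Replicate numbers are shared between groups. Of 18 same-numbered pairs of samples, 4 had deviations from the group means that correlated above 0.1 (range -0.33 to 0.20), so the numbers were not taken to pair the samples. Alternatives varied the normalization, the added constant (1 or 64), a filter at a mean intensity of 64, all probe sets, the groups in the fit, a replicate block, an intensity trend, and each array left out in turn.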

Additional observations from a re-analysis of the deposited data

Results flagged for a closer look

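For AT1G12010 light minus dark was 0.46 in amiR-SNF4 and -0.41 in wild type, opposite in sign, with no overlap of the arrays in either, but neither value was called (adjusted p = 0.0641 and 0.0924). Without normalization the wild-type value was 0.15 and the signs were the same. The difference between them was not tested, since the genotype contrasts chose the gene.

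For 6 other listed genes, of 56 tested, the genotype difference in light departed from that in darkness at an adjusted p under 0.05, which is 10.7% against 7.99% of all genes. It was 1.61 for WES1, 1.82 for IAA29 and 1.90 for HAT2, and -1.16 for AT5G43440, -0.85 for AT5G43450 and -0.76 for AT5G59540. In every case but WES1 the genotype difference was larger in size in darkness.

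Without normalization all 5 of these genes other than WES1 lost the call, at 1.64 for IAA29, 1.68 for HAT2, -1.20 for AT5G43440, -1.01 for AT5G43450 and -0.97 for AT5G59540, with adjusted p from 0.0598 to 0.258. Leaving out single arrays also ended calls for 3 loci. The call of AT5G43450 was lost without wild-type light replicate 2 (-0.76) or amiR-SNF4 light replicate 1 (-0.78), and that of AT5G59540 without amiR-SNF4 light replicate 3 (-0.69). The call of AT5G43440 was lost in 9 of the 12 fits that leave out an array, at -1.23 to -0.97, and held only without wild-type dark replicate 2, amiR-SNF4 dark replicate 1 or wild-type light replicate 1.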

How the results depend on the processing

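The direction of both genotype differences held under all 21 alternatives, and the cause of the changes below was not tested. Without normalization 1484 genes were called between genotypes in light and 2284 in darkness, AT1G12010 in darkness was -3.51, GH3.3 light minus dark lost its call (-0.42 in amiR-SNF4, -0.93 in wild type), and AT1G12010 light minus dark in wild type reversed to 0.15. With all 22746 probe sets tested, and so more features, 5353, 8161, 8778 and 8971 were called between genotypes in light, between genotypes in darkness, and between light and dark in amiR-SNF4 and in wild type. With 1 added, AT1G12010 was -3.48 in light and -4.75 in darkness. Its light minus dark in amiR-SNF4 became a call at 0.83 (adjusted p = 0.0401), while that of GH3.3 lost its call at -0.82 (adjusted p = 0.0788). With 64 added, GH3.3 in light was 2.47, AT1G12010 was -1.97 in light and -2.52 in darkness, and AT1G12010 light minus dark in wild type became a call at -0.36 (adjusted p = 0.0253). GH3.3 light minus dark in amiR-SNF4 was -0.80 with an adjusted p of 0.0559 when only its own groups were fitted. AT1G12010 there was 0.46 with an adjusted p of 0.0379 once dim genes were left out. It passed that filter only through wild type, with mean deposited intensities of 353 in light and 319 in darkness. In amiR-SNF4 it was itself dim, at 28.9 in light and 13.2 in darkness, so nothing is read from this call. The mean light minus dark difference of AT1G12010, never called, was 0.38 without normalization (adjusted p = 0.0809), outside the interval of the normalized estimate, -0.0078 with median scaling and -0.085 with 64 added.

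With a replicate block, AT1G12010 light minus dark was 0.46 in amiR-SNF4 (adjusted p = 0.0211) and -0.41 in wild type (adjusted p = 0.0334), both past the threshold. The block ended 1 of 50 calls of named genes in the auxin and ethylene lists. Whether the replicate numbers pair the samples is not known. Deviations of same-numbered light and dark arrays correlated at 0.09, 0.05 and 0.20 in wild type and at 0.13, 0.01 and 0.11 in amiR-SNF4. Between genotypes the same-numbered pairs ran from -0.33 to 0.19. Leaving out each array in turn gave -1.11 to -0.57 for GH3.3 and 0.34 to 0.61 for AT1G12010, light minus dark in amiR-SNF4, and -0.035 to 0.099 for the mean difference of AT1G12010. Of the 50 calls, 18 were lost under at least 1 alternative, 16 of them without normalization, and 0 reversed. The other 32 were lost under none of the alternatives that included them. Only 40 of the 50 were included once dim genes were left out. Fits of only the compared groups did not include the differences between genotype effects.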
